A study of Homo sapiens with 12 samples.

Results

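The genes described here are 9 genes of antigen presentation by MHC class I: the heavy chains HLA-B, HLA-C and HLA-E, the light chain B2M, the peptide transporter subunits TAP1 and TAP2, the loading factor TAPBP, the trimming peptidase ERAP1 and the regulator NLRC5. They were chosen by gene symbol, and all 9 were found once each among the 59577 genes of the deposited table. They were measured in H1299 cells, a widely used line derived from a human non-small cell lung cancer, with a group of 6 samples kept for 24 h in 60% O2, 5% CO2 and 35% N2 (hyperoxia) and a group of 6 kept in 21% O2, 5% CO2 and 74% N2 (normoxia). All cells were of this line, and the labels name no other agent or genetic change. Separate cultures are not stated for the samples of a group, so the spread behind each p-value may be technical only.

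MHC class I molecules carry short peptides from inside the cell to its surface, where T cells read them. The proteasome cuts proteins into peptides, TAP1 and TAP2 pump these into the endoplasmic reticulum, ERAP1 trims them, and tapasin (TAPBP) with its chaperones helps to load them on a heavy chain bound to B2M. HLA-B and HLA-C are classical heavy chains, while HLA-E presents mainly leader peptides of other class I chains to receptors of natural killer (NK) cells. NLRC5 drives transcription of class I genes together with factors bound at their promoters, and interferon gamma raises NLRC5 and most of these genes. Tumours, those of the lung among them, are known to lower class I genes and so to escape T cells.

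Values are TPM, transcript abundances per length scaled to a common total, and each sample summed to between 996138 and 998797 TPM. The number of genes at 1 TPM or more ran from 14275 to 14635 per sample. Depth is unknown, because it cannot be read from TPM. The keratins KRT8 and KRT18 averaged 592 and 947 TPM in hyperoxia and 604 and 955 TPM in normoxia, and vimentin (VIM) averaged 3004 TPM in hyperoxia and 3351 TPM in normoxia. The epithelial genes EPCAM, KRT19 and CDH1 stayed below 1 TPM in every sample. The 5 lung lineage markers together reached at most 1.35 TPM, although the line is labelled as lung cancer. The 8 leukocyte markers together gave 0.23 to 0.44 TPM in hyperoxia and 0.21 to 0.69 TPM in normoxia, and CD3E and TYROBP were at 0 in all 12 samples. On the first principal component of all tested genes, hyperoxia samples lay at -19.8 to -11.3, normoxia replicates 1 to 3 at 5.12 to 9.44 and normoxia replicates 4 to 6 at 18.7 to 33.3, so the last 3 stood apart from their own group, and the labels give no batch.

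Promoter windows are shown for 4 members to set the control elements named in the background beside the values that follow: B2M, which was higher in hyperoxia, HLA-B and HLA-C, a pair of heavy chains in which no change passed the test, and TAP1, a transporter subunit whose gene starts back to back with PSMB9. Windows run from 250 bases before the gene's start to 50 after, come from RefSeq on GRCh38.p14, and matched 7 of the 9 members by symbol, all but HLA-E and NLRC5. Letters in capitals mark matches, on either strand, to 6 patterns. They are GAAA and GAAA with 2 bases between (the interferon-stimulated response element), TTCNNNGAA (the interferon gamma element GAS), TGACG (core of the cyclic AMP response element), CCAAT (the Y box bound by NF-Y), and the NF-kB-like patterns GGGGA and TCCCC with 1 base between and GGGA and CCC with 3 bases between, which can overlap each other.
B2M (chr15:44711267-44711566, plus strand): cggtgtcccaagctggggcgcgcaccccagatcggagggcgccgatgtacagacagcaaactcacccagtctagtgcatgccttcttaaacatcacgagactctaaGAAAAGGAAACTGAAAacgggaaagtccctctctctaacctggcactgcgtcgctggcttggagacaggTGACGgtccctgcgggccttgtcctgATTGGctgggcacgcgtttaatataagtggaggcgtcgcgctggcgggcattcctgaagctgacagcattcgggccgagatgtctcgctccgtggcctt
HLA-B (chr6:31357130-31357429, minus strand): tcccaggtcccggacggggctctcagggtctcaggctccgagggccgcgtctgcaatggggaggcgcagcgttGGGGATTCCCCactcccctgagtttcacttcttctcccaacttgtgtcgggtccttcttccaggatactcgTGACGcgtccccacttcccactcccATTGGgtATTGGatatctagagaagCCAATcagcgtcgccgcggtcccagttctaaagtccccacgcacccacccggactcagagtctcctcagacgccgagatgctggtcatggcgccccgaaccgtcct
HLA-C (chr6:31272043-31272342, minus strand): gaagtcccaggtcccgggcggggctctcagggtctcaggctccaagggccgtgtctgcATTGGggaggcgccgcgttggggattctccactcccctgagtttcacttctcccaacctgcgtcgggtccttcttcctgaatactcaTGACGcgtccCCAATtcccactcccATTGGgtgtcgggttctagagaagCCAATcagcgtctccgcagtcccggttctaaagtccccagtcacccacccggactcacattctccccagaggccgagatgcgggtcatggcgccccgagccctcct
TAP1 (chr6:32853655-32853954, minus strand, the upstream of 2 starts): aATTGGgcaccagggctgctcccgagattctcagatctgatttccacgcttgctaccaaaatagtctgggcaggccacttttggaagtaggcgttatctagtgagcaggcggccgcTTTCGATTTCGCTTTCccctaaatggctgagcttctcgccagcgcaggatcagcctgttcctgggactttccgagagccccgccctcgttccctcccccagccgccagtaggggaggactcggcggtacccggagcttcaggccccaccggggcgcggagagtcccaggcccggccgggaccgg

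The B2M window held 2 overlapping matches to the interferon element, the first beginning 144 bases before the start, and a TGACG 75 bases before it. The TAP1 window also held 2 overlapping matches to the interferon element, the farther beginning 134 bases before the start. TAP2 and TAPBP, and ERAP1 in 1 of its 2 windows, held that pattern too. Over all 35116 promoter windows of the same length, 3.57% held it. The HLA-B window held GGGGATTCCCC 177 bases before its start, a match to the longer NF-kB-like pattern, found in 0.074% of windows, and the HLA-C window held no match to that pattern or to the shorter one, found in 7.59%. The GAS pattern, found in 7.66% of windows, was matched in the second TAP1 window, not printed here, 189 bases before that start, and in no other window of the 7 members. Both heavy chain windows held a TGACG, found in 24.6% of windows, and several CCAAT or ATTGG, found in 34.6%. A match is a description of letters in a window and not evidence of a bound factor.

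The comparison of hyperoxia with normoxia asks how the RNA levels of these genes stood after a day of supplemental oxygen. HLA-E and B2M were higher in hyperoxia, the other 7 members did not pass the test, and none was lower. Thus 2 of 9 members passed as higher (limma on log2(TPM + 1), Benjamini-Hochberg adjusted p under 0.05), against 11.7% of the 14520 genes tested, and 0 of 9 passed as lower, against 5.63%. All 9 members were tested, since each averaged at least 1 TPM over the 12 samples. Their median log2 fold change was 0.12 beside 0.03 over all genes tested. Of the 9 values 6 were above 0, as were 8296 of the 14520 over all genes tested. Over all genes, 1698 were higher and 818 lower as deposited (17.3% in either direction), or 1279 higher (8.81%) and 1277 lower (8.79%) after median-of-ratios scaling, under which 1 of 9 members was higher and 0 lower. Bulk RNA cannot tell fewer expressing cells from less RNA per cell.

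**Figure D1:**
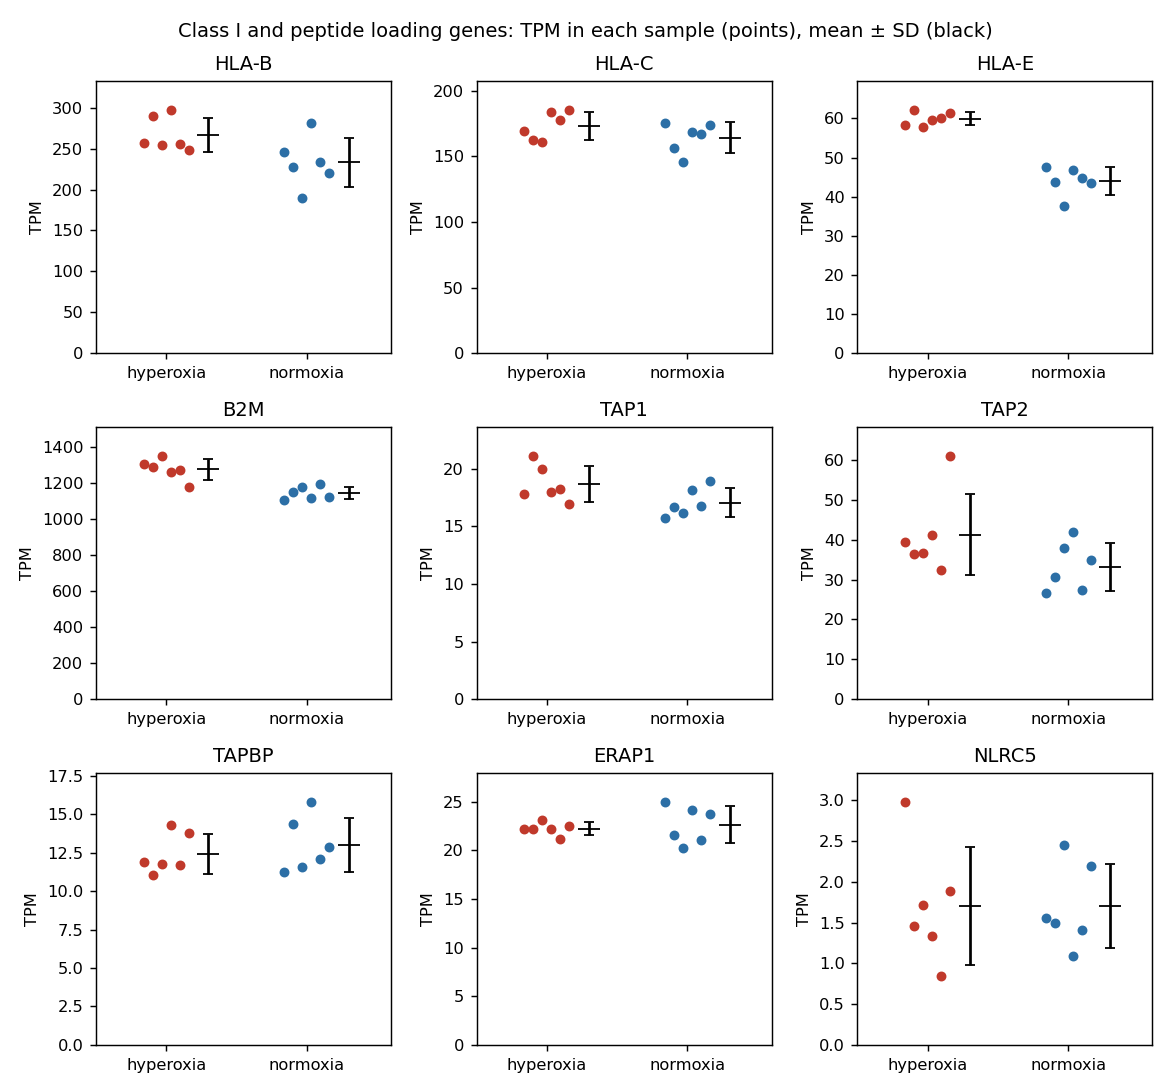
TPM of the 9 members in each of 6 hyperoxia samples (red) and 6 normoxia samples (blue), with mean and SD in black and a linear axis from 0 in each panel. Only HLA-E has groups that do not overlap, with hyperoxia samples from 57.8 to 62.1 TPM and normoxia samples from 37.7 to 47.5 TPM.

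HLA-E (ENSG00000204592, chromosome 6) was the member with the smallest p. Its lowest, median and highest values were 57.8, 59.9 and 62.1 TPM in hyperoxia, against 37.7, 44.3 and 47.5 TPM in normoxia. Every hyperoxia sample lay above every normoxia sample, a pattern that 1 of 9 members showed and that 6.2% of all tested genes showed in that direction. No member lay wholly below normoxia, as 2.58% of genes did. Means were 59.9 ± 1.67 TPM in hyperoxia and 44.0 ± 3.48 TPM in normoxia (SD, n = 6 each), a ratio of 1.36. On the log2(TPM + 1) scale HLA-E was higher by 0.44 (SE 0.05, 95% interval 0.33 to 0.55, limma adjusted p = 8.77e-05). Without normoxia replicates 4 to 6 the difference was 0.47 (limma adjusted p = 0.00293). Samples also lay closer together in hyperoxia, with a coefficient of variation of 2.78% there and 7.91% in normoxia, a difference that was not tested. No other gene overlaps HLA-E in GENCODE 29.

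HLA-B (ENSG00000234745) measured 248, 256 and 297 TPM in hyperoxia and 189.6, 231 and 282 TPM in normoxia as lowest, median and highest values. The groups overlapped, with 2 of 6 hyperoxia samples above every normoxia sample. Its log2 fold change was 0.20 (SE 0.08, 95% interval 0.03 to 0.37, limma adjusted p = 0.0983), and the interval, which is not adjusted for the number of genes, lies above 0. HLA-C (ENSG00000204525), the classical chain most read by NK cell receptors, measured 161, 174 and 185 TPM in hyperoxia and 145, 167 and 175 TPM in normoxia. Its log2 fold change was 0.08 (SE 0.05, 95% interval -0.04 to 0.19, limma adjusted p = 0.349). The heavy chain genes are near copies of each other and vary between people, and how reads that match several of them were counted is not given in the sources used here, so the split between HLA-B and HLA-C is uncertain. HLA-B and HLA-C also overlap each other on 1 strand in GENCODE 29.

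B2M (ENSG00000166710, chromosome 15), the light chain that every class I heavy chain needs to reach the surface, was the member with the highest level, at rank 135 of 59577 genes. It measured 1177, 1282 and 1349.5 TPM in hyperoxia and 1105, 1135 and 1192 TPM in normoxia as lowest, median and highest values. Hyperoxia replicate 6 lay within the normoxia range, and the other 5 hyperoxia samples lay above every normoxia sample. Means were 1277 ± 57.6 TPM in hyperoxia and 1144 ± 35.2 TPM in normoxia (SD, n = 6 each), and the log2 fold change was 0.16 (SE 0.03, 95% interval 0.09 to 0.23, limma adjusted p = 0.00519). The call was lost with median-of-ratios scaling (0.13, adjusted p = 0.0995), upper-quartile scaling (0.12, adjusted p = 0.0922) and an exact rank-sum test (adjusted p = 0.0559). Without normoxia replicates 4 to 6 it was 0.16 (limma adjusted p = 0.0458).

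**Figure D2:**
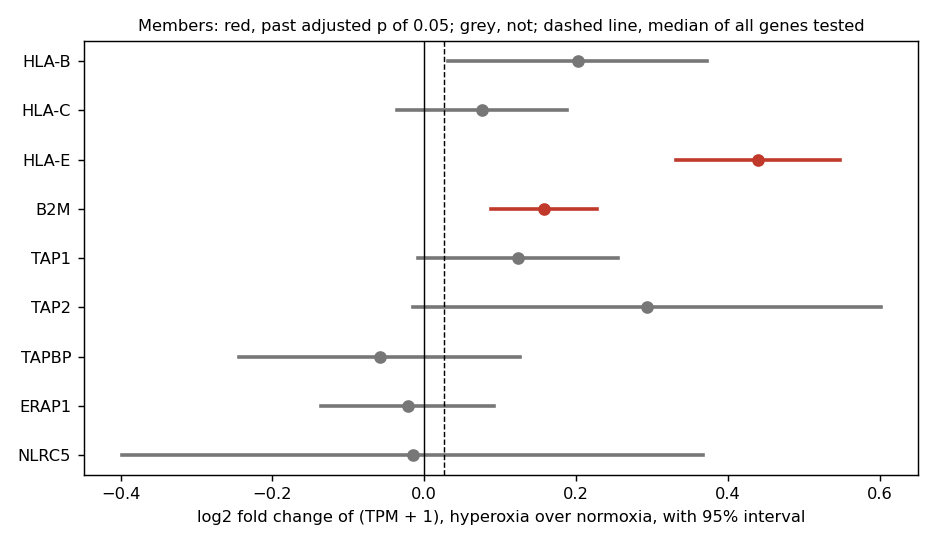
Log2 fold change of TPM + 1, hyperoxia over normoxia, for each member (point) with its 95% interval (line, not adjusted for the number of genes). The intervals of HLA-E (0.33 to 0.55) and B2M (0.09 to 0.23), in red, belong to the 2 members past an adjusted p of 0.05, and the dashed line is the median of all tested genes, 0.03.

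TAP1 (ENSG00000168394) and TAP2 (ENSG00000204267), next to each other in the class II region of chromosome 6, encode the partner chains of the transporter. TAP1 measured 16.9, 18.1 and 21.1 TPM in hyperoxia and 15.7, 16.7 and 19.0 TPM in normoxia, with a log2 fold change of 0.12 (SE 0.06, limma adjusted p = 0.191). TAP2 measured 32.5, 38.1 and 61.0 TPM in hyperoxia and 26.7, 32.7 and 42.1 TPM in normoxia, with a log2 fold change of 0.29 (SE 0.14, 95% interval -0.02 to 0.60, limma adjusted p = 0.185). The groups overlapped for both genes. Hyperoxia replicate 6 held the highest TAP2 value, and without it the log2 fold change was 0.18 (adjusted p = 0.315). In GENCODE 29, TAP1 overlaps PSMB9 and PSMB8-AS1 on the opposite strand, and TAP2 overlaps AL669918.1 on its own strand, a gene listed at 15.96 TPM in hyperoxia and 16.3 TPM in normoxia, so reads of these pairs may have been shared.

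TAPBP (ENSG00000231925), which bridges the transporter to empty class I molecules, measured 11.1, 11.8 and 14.3 TPM in hyperoxia and 11.3, 12.5 and 15.8 TPM in normoxia. Its log2 fold change was -0.06 (SE 0.09, 95% interval -0.24 to 0.13, limma adjusted p = 0.695). ERAP1 (ENSG00000164307, chromosome 5), which cuts peptides to the length that class I holds, measured 21.1, 22.2 and 23.1 TPM in hyperoxia and 20.2, 22.7 and 25.0 TPM in normoxia. Its log2 fold change was -0.02 (SE 0.05, 95% interval -0.14 to 0.09, limma adjusted p = 0.825). The groups overlapped for both genes, and every ERAP1 value in hyperoxia lay inside the normoxia range. ERAP1 overlaps CAST, listed at 151 TPM in hyperoxia and 149 TPM in normoxia, on the opposite strand.

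NLRC5 (ENSG00000140853, chromosome 16), the transactivator of class I genes, was the lowest of the 9 at rank 13319 of 59577 genes. It measured 0.84, 1.59 and 2.98 TPM in hyperoxia and 1.09, 1.525 and 2.45 TPM in normoxia, so the hyperoxia range contained the normoxia range. Its log2 fold change was -0.02 (SE 0.18, 95% interval -0.40 to 0.37, limma adjusted p = 0.967), so changes in either direction within that interval were not excluded.

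By mean level over the 12 samples the order was B2M, HLA-B, HLA-C, HLA-E, TAP2, ERAP1, TAP1, TAPBP and NLRC5. The ranges over the 12 samples overlapped between HLA-E and TAP2, between ERAP1 and TAP1 and between TAP1 and TAPBP, and did not overlap between the other neighbours. TAP2 and NLRC5 varied most within groups, with coefficients of variation of 24.5% and 42.3% in hyperoxia and 18.2% and 30.3% in normoxia. The share of HLA-E in the summed TPM of HLA-B, HLA-C and HLA-E was 11.1% to 12.4% in hyperoxia and 9.42% to 10.3% in normoxia. Means of that share were 11.995% ± 0.482 in hyperoxia and 9.99% ± 0.295 in normoxia (SD, n = 6 each), and the groups did not overlap. B2M per summed heavy chain averaged 2.56 ± 0.195 in hyperoxia and 2.62 ± 0.32 in normoxia, with overlapping groups. TAP1 per TAP2 averaged 0.475 ± 0.113 in hyperoxia and 0.524 ± 0.0777 in normoxia, again with overlap. None of these ratios was tested, and the HLA-E share also rests on how shared reads of the heavy chains were counted.

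**Figure D3:**
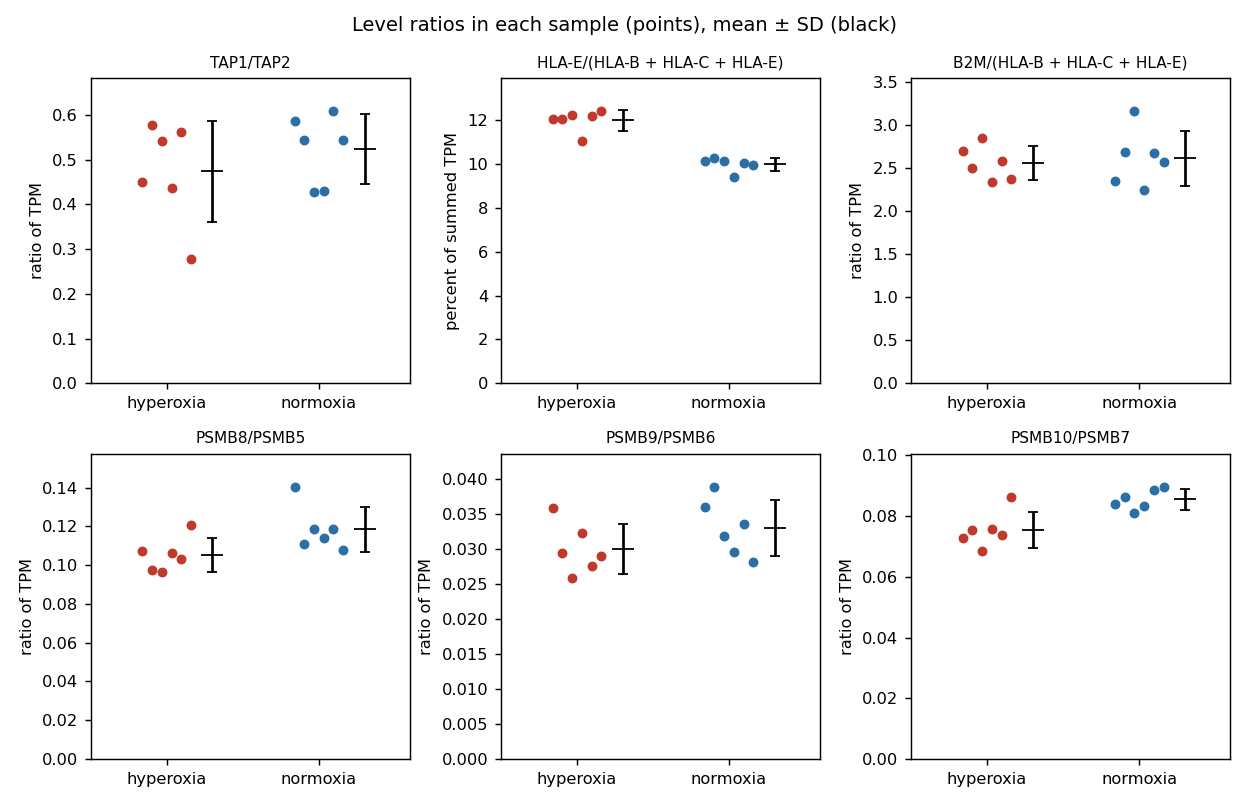
Ratios of TPM within each sample, hyperoxia (red) left of normoxia (blue), with mean and SD in black and linear axes from 0. The share of HLA-E in the heavy chain sum is the only one of the 6 whose groups do not overlap, at 11.1% to 12.4% in hyperoxia and 9.42% to 10.3% in normoxia.

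Other class I and class I-like genes gave 3 higher and 0 lower of 7 tested, with 4 of 11 below the filter. Shares over all genes tested were 11.7% higher and 5.63% lower. PROCR, a class I-like receptor of protein C on the cell surface, averaged 91.0 ± 4.12 TPM in hyperoxia and 77.3 ± 2.86 TPM in normoxia (SD, n = 6 each; log2 fold change 0.23, SE 0.04, limma adjusted p = 0.00123). MICB, a stress ligand of the NK receptor NKG2D, was higher by 0.17 (SE 0.05, limma adjusted p = 0.0318) and lost its call with no filter (adjusted p = 0.0608), with the exact rank-sum test (0.0559) and in 9 of 12 fits without 1 sample. HLA-F was listed at no more than 0.75 TPM in any sample.

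Genes of the loading complex and of peptide handling in the endoplasmic reticulum gave 1 higher and 2 lower of 14. Over all genes tested the shares were 11.7% and 5.63%. CALR, the chaperone calreticulin of the loading complex, fell by 0.12 on the log2 scale, with 461 ± 13.6 TPM in hyperoxia and 503 ± 21.7 TPM in normoxia (SD, n = 6 each; limma adjusted p = 0.0172, and 0.147 without normoxia replicates 4 to 6). CANX (calnexin) averaged 200.2 TPM in hyperoxia and 198 TPM in normoxia (limma adjusted p = 0.807). PDIA3, the disulfide isomerase of the loading complex, averaged 270.3 TPM in hyperoxia and 282 TPM in normoxia (limma adjusted p = 0.269). It passed as lower with median-of-ratios scaling (adjusted p = 0.0316), with upper-quartile scaling (0.0267) and without normoxia replicate 3 (0.0453). HSPA5, a general chaperone of this compartment, fell by 0.40 (SE 0.05, limma adjusted p = 3.52e-04). HM13, the protease that releases leader peptides of the kind HLA-E presents, was higher in hyperoxia, with 261 TPM against 239 TPM in normoxia and no overlap between groups (log2 fold change 0.13, SE 0.03, limma adjusted p = 0.0051). ERAP2, the partner of ERAP1, averaged 2.27 TPM in hyperoxia and 2.51 TPM in normoxia (limma adjusted p = 0.932).

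None of 8 genes of the immunoproteasome and its activators passed the test in either direction, against 17.3% of all genes tested. PSMB8, the chymotrypsin-like immunoproteasome subunit, averaged 25.8 ± 2.08 TPM in hyperoxia and 26.5 ± 1.97 TPM in normoxia. PSMB9, which starts back to back with TAP1, averaged 8.97 ± 0.962 TPM in hyperoxia and 9.73 ± 0.962 TPM in normoxia. PSMB10 averaged 38.8 ± 2.44 TPM in hyperoxia and 40.1 ± 2.07 TPM in normoxia (SD, n = 6 each). The limma adjusted p was 0.73 for PSMB8, 0.38 for PSMB9 and 0.571 for PSMB10. The activator subunits PSME1 and PSME2 had log2 fold changes of -0.0011 and 0.0086. Of the 3 constitutive subunits that these replace, PSMB5 rose by 0.13 (limma adjusted p = 0.0124) and PSMB7 by 0.14 (limma adjusted p = 0.0365), while PSMB6 did not pass (0.02, limma adjusted p = 0.709). With median-of-ratios scaling both missed the threshold (adjusted p = 0.117 for PSMB5 and 0.248 for PSMB7), as they did with upper-quartile scaling and without normoxia replicates 4 to 6. In all, PSMB7 lost its call in 7 alternatives and in 8 of 12 fits without 1 sample. PSMB10 per PSMB7 averaged 0.0754 ± 0.00598 in hyperoxia and 0.0855 ± 0.00335 in normoxia, with overlapping groups. None of 11 cytosolic peptidases passed, against the same 17.3%.

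Upstream of class I genes, 3 of 14 interferon gamma signalling genes rose and none fell, against 11.7% and 5.63% of all genes tested. SOCS1, a feedback inhibitor of the Janus kinases, averaged 2.12 ± 0.599 TPM in hyperoxia and 0.953 ± 0.247 TPM in normoxia (SD, n = 6 each; log2 fold change 0.66, SE 0.14, limma adjusted p = 0.00605), and its call was lost without normoxia replicates 4 to 6 (adjusted p = 0.062). IRF1, an activator of class I and TAP1 promoters, averaged 17.3 ± 1.58 TPM in hyperoxia and 14.005 ± 1.398 TPM in normoxia (log2 fold change 0.29, SE 0.07, limma adjusted p = 0.0159, and 0.0559 with the exact rank-sum test). IRF2, which also acts at these promoters, had a log2 fold change of 0.02 (limma adjusted p = 0.839).

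Of 12 NF-kB subunits and inhibitors, 5 rose and none fell, against 11.7% and 5.63% of all genes tested. Their median log2 fold change was 0.19 beside 0.03 over all genes. RELB, a subunit of the alternative pathway, averaged 55.5 ± 1.90 TPM in hyperoxia and 44.2 ± 1.98 TPM in normoxia (SD, n = 6 each; log2 fold change 0.32, SE 0.04, limma adjusted p = 1.11e-04). IKBKG, the scaffold of the inhibitor kinase, rose by 0.30 (limma adjusted p = 0.00283) and the inhibitor NFKBIB by 0.27 (limma adjusted p = 0.00373). RELA, the main activating subunit, rose by 0.22 (limma adjusted p = 0.0207, or 0.0511 with no filter on the mean level). CHUK, a catalytic kinase subunit, rose by 0.23 (limma adjusted p = 0.0435) and lost its call in 8 alternatives and in 9 of 12 fits without 1 sample. RELA and CHUK were named after their values were seen.

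A list of the promoter complex that NLRC5 joins also held other promoter factors, USF1 among them, which are not subunits of it. Among its 13 tested genes USF1 alone passed, where 17.3% of all genes tested did. USF1 rose by 0.15 (SE 0.05, limma adjusted p = 0.0462) and lost its call in 7 alternatives and in 9 of 12 fits without 1 sample. RFX5, the subunit that binds the X box, averaged 35.0 ± 0.614 TPM in hyperoxia and 32.8 ± 2.02 TPM in normoxia (SD, n = 6 each; log2 fold change 0.09, limma adjusted p = 0.15). CIITA, the related transactivator of class II genes, averaged 0.503 TPM in hyperoxia and 0.383 TPM in normoxia and was below the filter. Of 10 MHC class II genes 9 were below it, and HLA-DMA, at 0.937 TPM in hyperoxia and 1.125 TPM in normoxia, did not pass (limma adjusted p = 0.509). None of 10 silencers of class I genes, among them the PRC2 subunits, passed, against the same 17.3%.

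Of 15 genes of class I turnover and retention 3 rose and 1 fell, against 11.7% and 5.63% of all genes tested. IRGQ, reported in other cells to direct class I molecules to autophagy, averaged 14.3 ± 0.429 TPM in hyperoxia and 11.1 ± 0.878 TPM in normoxia (SD, n = 6 each; log2 fold change 0.34, SE 0.05, limma adjusted p = 0.00105), and its groups did not overlap. DERL1, which takes part in export of class I chains for degradation, rose by 0.16 (limma adjusted p = 0.0231). The call of DERL1 was lost without hyperoxia replicate 2 (adjusted p = 0.051). UBE2G2, a ubiquitin-conjugating enzyme of the same route that was named after its values were seen, rose by 0.15 (limma adjusted p = 0.0336) and lost its call in 6 alternatives and in 7 of 12 fits without 1 sample. WWP2, a ubiquitin ligase that acts with SUSD6 and TMEM127 on surface class I, fell by 0.22 (SE 0.06, limma adjusted p = 0.03), and lost its call in 3 alternatives and in 6 of 12 fits without 1 sample.

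Ligands that NK and T cells read beside class I went both ways, with 3 higher and 2 lower of 10 tested. Over all genes tested the shares were 11.7% and 5.63%. The NKG2D ligand ULBP1 averaged 2.99 ± 0.268 TPM in hyperoxia and 5.20 ± 0.691 TPM in normoxia (SD, n = 6 each), with no overlap between groups. ULBP1 fell by 0.63 (SE 0.09, limma adjusted p = 3.63e-04). Its relative ULBP2 rose by 0.46 (SE 0.12, limma adjusted p = 0.02, 0.0574 with no filter and 0.0559 with the exact rank-sum test), with 4.14 ± 0.811 TPM in hyperoxia and 2.74 ± 0.506 TPM in normoxia. PVR, a ligand of DNAM-1 and TIGIT, rose by 0.19 (limma adjusted p = 0.0165, and 0.0513 without normoxia replicates 4 to 6). CD47, a signal against phagocytosis, rose by 0.19 (limma adjusted p = 0.0334) and CD276, a B7 family protein, fell by 0.18 (limma adjusted p = 0.0445). Both were named after their values were seen. CD47 lost its call in 6 alternatives and in 7 of 12 fits without 1 sample, and CD276 in 4 alternatives and in 8 of 12. In the authors' deposited table CD47 had a fold change of 1.016 with the authors' adjusted p at 0.732. There CD276 had a fold change of 0.847 with the authors' adjusted p at 2.45e-04.

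**Figure D4:**
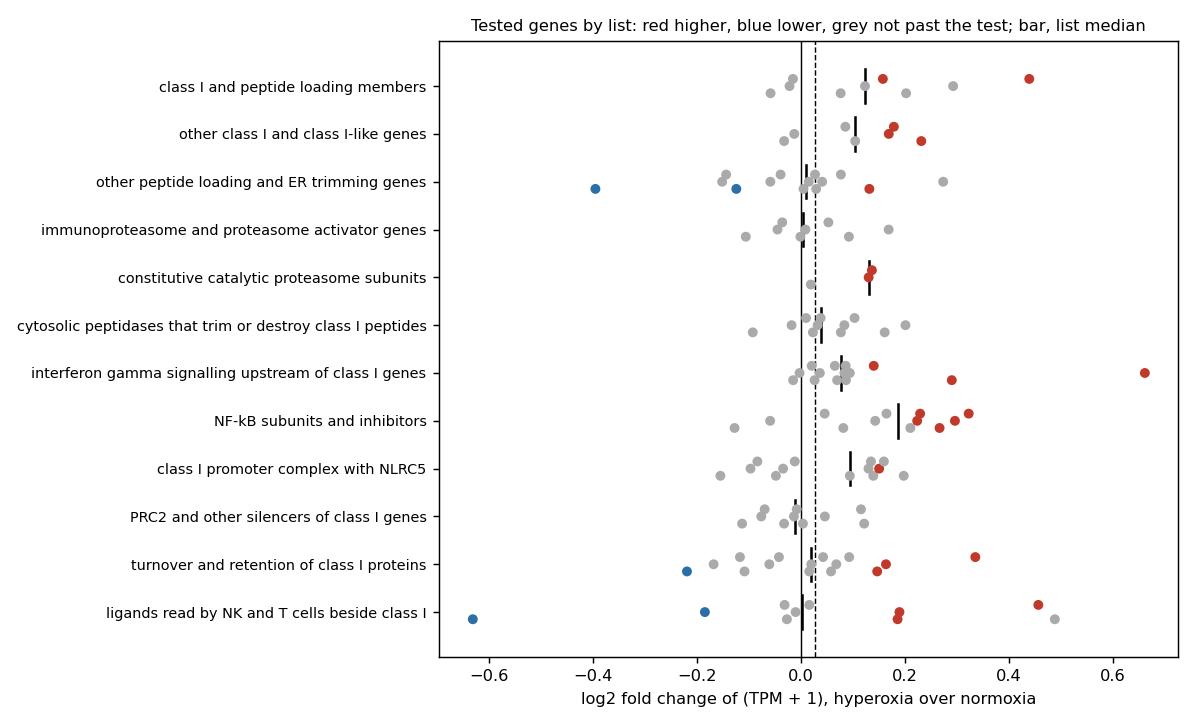
Log2 fold change of TPM + 1, hyperoxia over normoxia, for each tested gene of the members and 11 lists (red higher, blue lower, grey not past the test), with list medians as bars and the median of all genes tested, 0.03, as a dashed line. The NF-kB list has a median of 0.19 with 5 of 12 higher, and the immunoproteasome list has none of 8 past the test. Of all genes tested, 11.7% were higher and 17.3% passed in either direction.

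Among genes outside the members and lists, the profile over the 12 samples closest to that of HLA-E was that of TFE3, with a root mean square difference of 0.0676 on the log2(TPM + 1) scale after centring each gene, and GCNT2 (0.0719) and UBE2H (0.0731) came after it. Closest to B2M were DNAJC8 (0.0285), ATP5MG (0.0329) and PPIA (0.0354). TFE3 averaged 45.9 TPM in hyperoxia and 35.4 TPM in normoxia, and DNAJC8 averaged 128 TPM in hyperoxia and 115 TPM in normoxia.

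The authors' deposited table, computed by them on another scale, gave HLA-E a fold change of 1.35 with an adjusted p of 4.29e-29. For TAP1 the authors' deposited table held a fold change of 1.118 with an adjusted p of 0.0161, where the test on TPM did not pass. For B2M the authors' deposited table held a fold change of 1.09 with an adjusted p of 0.0575, where the test on TPM passed. TAP2 had a fold change of 1.05 in the authors' deposited table, beside a ratio of mean TPM of 1.24. NLRC5 had 0.888 there, in the authors' deposited table, beside a ratio of mean TPM of 1.00. None of the 9 members was marked as significant in the authors' deposited table. That mark did not follow the adjusted p alone, since HLA-E was unmarked at 4.29e-29. SOCS1, with a fold change of 2.08 there, was marked.

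**Figure D5:**
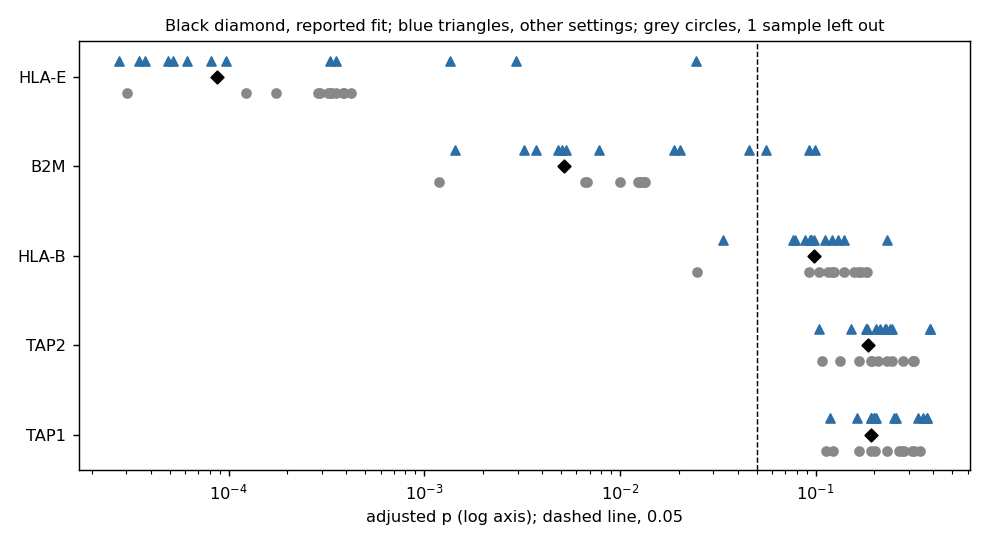
Adjusted p on a log axis for 5 genes under the reported fit (black diamonds), 13 other settings (blue triangles) and fits without 1 sample (grey circles), with 0.05 as a dashed line. All HLA-E values lie below the line, at up to 0.0246, while B2M and HLA-B have values on both sides.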

How the data were processed

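RNA of 12 H1299 samples was sequenced. The submitters' processing notes name HTSeq 0.9.1 for counting and edgeR 3.16.5 for normalisation and testing. The labels' extraction protocol and the series' design text name different library kits, and the notes list a mouse build although all identifiers are human, so no coordinates of the files are used. How TPM was derived, and from which alignment and annotation, is not given in the sources used here. Values of single samples were deposited as TPM, per the file headers, in a table whose name gives another unit. Further columns hold what the authors computed: means of each group in TPM, a linear fold change, the log2 of it, and p-values with and without adjustment. In 78 rows, none of a gene reported here, these disagree with each other or with the samples (tolerances 1e-06 on the log2 scale and 1e-05 TPM).

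Groups came from the titles. Genes with a mean of at least 1 TPM over 12 samples were tested with limma 3.58.1 (lmFit, eBayes with trend, R 4.3.3) on log2(TPM + 1), as a two-sided test adjusted over 14520 genes (Benjamini-Hochberg). This scale understates changes of low genes. The step was tested on simulated data. Members, lists and alternatives were chosen with earlier results of these data known. Named genes are the members, a fixed set, up to 3 called genes of each of 12 lists by smallest p, and the 3 closest profiles to B2M and HLA-E. Some named genes are not reported here. Alternatives were another pseudocount, 2 filters, 3 scalings, 3 limma settings, a replicate block, an exact rank-sum test, samples left out and disagreeing rows left out. Figures were drawn with matplotlib 3.10.9 in Python 3.11.15.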

Additional observations from a re-analysis of the deposited data

Results flagged for a closer look

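In 106 groups of 6 samples, of the named genes and level ratios, the highest or lowest sample was set against the nearest of the others, and 9 groups had a gap above the 95% critical share of their range. Chance flags about 1 in 20 groups. Hyperoxia replicate 6 had TAP2 at 61.0 TPM, next to 41.3 TPM in the nearest hyperoxia sample, and HLA-F at 0.75 TPM, next to 0.25 TPM. Normoxia replicate 1 had PSMB8 at 30.3 TPM, next to 26.3 TPM in the nearest normoxia sample, and PSMB8 per PSMB5 at 0.14 (0.1404), next to 0.118. Normoxia replicate 5 had the lowest CANX value of its group, 184 TPM next to 198 TPM. Normoxia replicate 3 had the lowest PDIA3 value of its group, 257 TPM next to 285 TPM. Normoxia replicate 6 had ERAP2 at 5.71 TPM, next to 2.26 TPM. The share of HLA-E in the heavy chain sum was lowest in replicate 4 of each group, at 11.1% (11.05%) next to 12.04% in hyperoxia and at 9.42% next to 9.95% in normoxia, where HLA-B was also the highest of its group in both.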

How the results depend on the processing

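Under 25 alternatives, 12 of which left out 1 sample, HLA-E kept its direction and its call in each (log2 fold change 0.40 to 0.47, adjusted p 2.77e-05 to 0.0246). The members higher numbered 1 in place of 2 with median-of-ratios scaling, upper-quartile scaling and the exact rank-sum test, and 2 to 3 in fits without 1 sample, with HLA-B added without normoxia replicate 4 (adjusted p = 0.0247). B2M ranged over adjusted p of 0.00119 to 0.0995. With median-of-ratios scaling 1277 genes were lower in place of 818, with upper-quartile scaling 1340, with the exact rank-sum test 515 and without normoxia replicates 4 to 6 375, where 1000 were higher in place of 1698. Fits without 1 sample gave 1330 to 1558 higher and 602 to 934 lower. Of the 118 tested genes of the 12 lists, 21 were higher and 5 lower, against 11.7% and 5.63% of all genes tested. The list counts were 12 and 3 with no filter, and 13 and 3 with the rank-sum test. The number lower was 12 with median-of-ratios and with upper-quartile scaling, 10 with quantile normalisation, 2 without normoxia replicates 4 to 6, and 3 to 9 in fits without 1 sample. Fewer samples or more genes tested enter some of these fits by construction, and otherwise the cause was not tested.

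Of 1270 values of 51 named genes, 160 lost a call, 5 gained one and 32 changed sign, all of these in genes that did not pass. Without normoxia replicates 4 to 6 the log2 fold change was 0.0017 for TAPBP, 0.001 for ERAP1, 0.0182 for PSME1, -0.0043 for PSME2, -0.019 for CANX and 0.2343 for ERAP2. With median-of-ratios and upper-quartile scaling it was -0.022 and -0.0289 for PSME2, -0.0156 and -0.0225 for CANX, and -0.008 and -0.0145 for IRF2. With quantile normalisation it was -0.0004 for IRF2. In fits without 1 sample the ranges were -0.1349 to 0.0877 for NLRC5, -0.052 to 0.0062 for ERAP1, -0.076 to 0.0023 for PSMB8, -0.0141 to 0.0139 for PSME1, -0.0121 to 0.0269 for PSME2, -0.0057 to 0.0274 for CANX, -0.1272 to 0.1659 for ERAP2 and -0.0147 to 0.0458 for IRF2. A minimum mean of 5 TPM left NLRC5 untested.

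Replicate numbers did not pair the samples, since same-numbered samples correlated at -0.117 to 0.0169 in their deviations from group means and 1 of 6 correlated best with its own number. With a replicate block 1656 genes were higher and 889 lower, and HLA-B passed (log2 fold change 0.20, adjusted p = 0.0338). Depth is unknown, so no counting error can be given for low genes such as NLRC5.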
